A study of Mus musculus with 6 samples.

Results

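Genes for proteins that place, read and remove acetyl groups on histones, and for nuclear receptor coactivators, were examined in mouse oocytes that lacked Lsd1. Members were all gene symbols of the count tables that begin with Hdac, Sirt, Kat, Myst, Brd, Brpf or Ncoa followed by a digit, together with Ep300, Crebbp, Hat1 and Brdt. This rule gave 45 of 23284 symbols: 10 writers, 7 nuclear receptor coactivators, 10 readers and 18 erasers. RNA was sequenced from fully grown oocytes at the germinal vesicle stage, when the oocyte rests in prophase of the first meiotic division. The groups were Lsd1 KO and Control, 3 biological replicates each, both of mixed C57BL/6-129 strain. Females of both groups were 4 to 6 weeks old and had received 5 IU of gonadotrophin from pregnant mare serum 48 hours before collection, and each sample held 100 oocytes. The Lsd1 alleles and any Cre driver of the Lsd1 KO mice, and the alleles of the Control mice, are not stated in the labels.

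Acetyl groups on histone lysines neutralise the positive charge of the histone tail and are a mark of accessible, transcribed chromatin. Writers such as the paralogs p300 (Ep300) and CBP (Crebbp) transfer the acetyl group from acetyl-CoA, bromodomain proteins bind the acetylated lysine, and erasers take the group off. The erasers are of different chemistry: histone deacetylases (HDACs) use a zinc ion, whereas sirtuins consume NAD. In the growing oocyte histone acetylation is high, and it is removed when meiosis resumes. LSD1, the product of Kdm1a, is a histone demethylase that works in one complex with HDAC1 and HDAC2.

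Libraries held 10735422 to 13035045 counts in genes. Levels below are CPM, the usual unit of counts scaled to the library's total, on library sizes scaled by the TMM method, as mean ± SD (n = 3 per genotype). Fold changes are Lsd1 KO over Control, ± SE, with Benjamini-Hochberg adjusted p over 12935 tested genes from edgeR's quasi-likelihood test, and a gene was called at an adjusted p under 0.05. Kdm1a had 47, 31 and 36 counts in Lsd1 KO against 799, 962 and 492 in Control (log2 fold change -4.28 ± 0.27, adjusted p = 4.58e-06), the difference that the labels call for. All 12 oocyte markers were detected, and their summed level was 33471 to 37872 CPM in Lsd1 KO and 23148 to 27068 CPM in Control. Gdf9, an oocyte growth factor, made the largest share of it, with a mean of 15558 CPM in Lsd1 KO against 6057 in Control. Without Gdf9 the sums overlapped, at 18989 to 21693 CPM for Lsd1 KO and 16132 to 21500 CPM for Control, and 8 of the 12 log2 values were below 0. Gdf9 and Oosp1 were called higher. The 13 granulosa and cumulus markers summed to 411 to 476 CPM in Lsd1 KO and 132 to 160 CPM in Control. Cyp19a1, called higher, alone made 239 to 405 CPM in Lsd1 KO and 28.6 to 49.2 CPM in Control, and so most of this difference. Inha and Gja1 were also called higher, and Nr5a2 was called lower. The 11 immune markers summed to 185, 29.7 and 173 CPM in Lsd1 KO replicates 1 to 3 and to 52.4, 21.2 and 68.8 CPM in Control. One of them, the macrophage marker Cd68, was called higher (log2 1.86 ± 0.54, edgeR adjusted p = 0.0281). The 9 theca and stroma markers stayed at or below 9.43 CPM in sum, and Hba-a1, Hba-a2, Hbb-b1 and Hbb-b2 were at 0 in every library. What part the granulosa and immune transcripts had in the values below was not tested. In pooled oocytes, a lower level cannot be told apart from a lower share of cells that carry the transcript, and levels are relative to the other RNA of the library.

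Members were called in both directions in Lsd1 KO. Transcripts of 3 writers, 2 coactivators, 3 readers and 1 sirtuin were lower, and those of 1 reader and 3 sirtuins higher. Of the 45 members, 42 passed the filter on low counts and were tested, and 13 of these (31.0%) passed the test. Over all genes tested, 21.3% did so. The 9 members that fell were Ep300, Hat1, Kat2a, Ncoa2, Ncoa7, Brdt, Brd3, Brd8 and Sirt1. They compare with a background of 10.3% of all genes called lower. The 4 members that rose were Sirt2, Sirt4, Sirt5 and Brd7, where 11.0% of all genes were called higher. The median log2 fold change was -0.21 over the 42 members and -0.01 over all genes tested, and 28 of the 42 values were below 0. In 22 members the 3 Lsd1 KO libraries did not overlap the 3 Control libraries, 8 with Lsd1 KO above and 14 with it below, where 38.7% of all genes did not overlap. The number lower was 4 when replicate 1 or 3 of Lsd1 KO or replicate 2 of Control was left out. The number higher was 2 when replicate 1 of Lsd1 KO or replicate 1 or 2 of Control was left out. All 3 falls among readers (Brdt, Brd3 and Brd8) were lost without Lsd1 KO replicate 1. Of the 13 called members, only Ep300, Hat1, Sirt1, Sirt2 and Brd7 kept the call with each library left out.

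**Figure D1:**
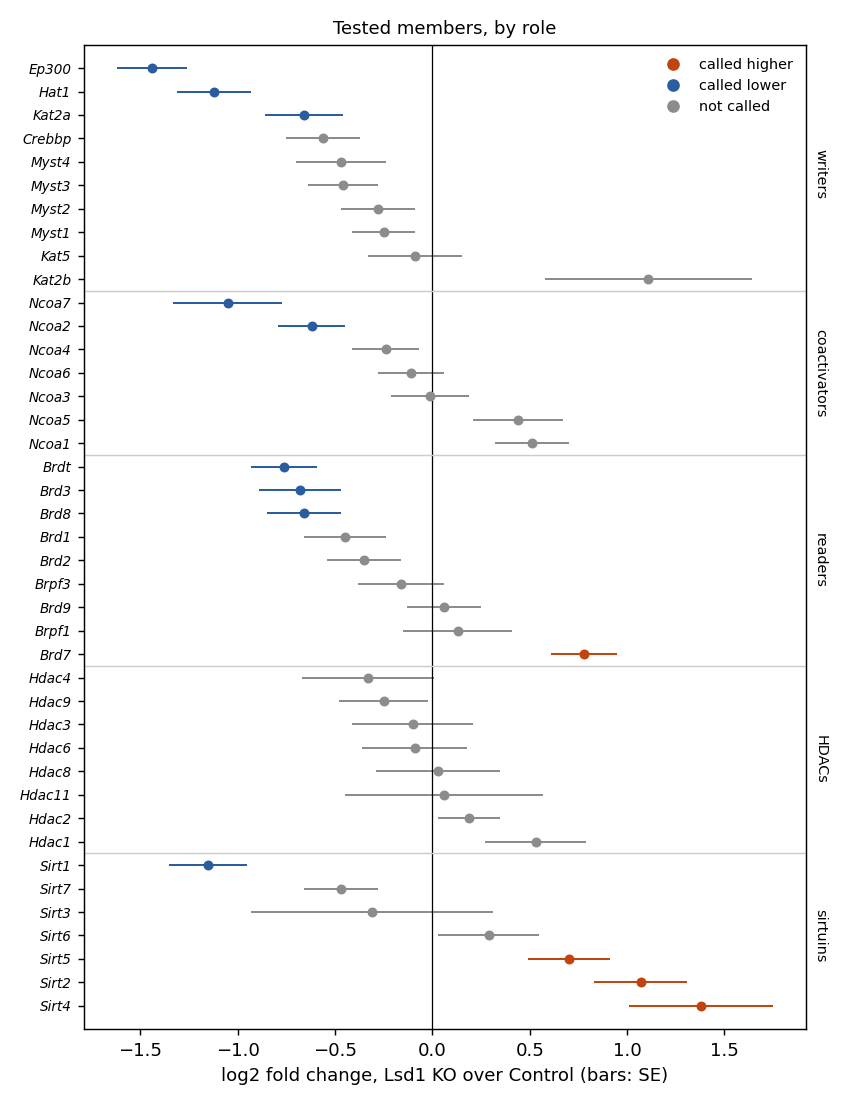
Log2 fold change of the tested members that are reported (x axis, Lsd1 KO over Control, bars ± SE), one gene per line and grouped by role. Called falls reach -1.44 (Ep300) and called rises reach 1.38 (Sirt4); the 8 HDACs all lie in grey between -0.33 and 0.53.

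Ep300, Hat1, Sirt1 and Brd7 kept their call in each of 15 alternative fits, as did Sirt2. The DNA before the RefSeq starts of Ep300, Hat1, Sirt1 and Brd7 is shown because their transcripts kept their call, 3 downward and 1 upward. Each window is the first 200 bases free of annotated exons upstream of the RefSeq start, read 5′ to 3′ on the gene's strand from NCBIM37 (mm9). They lie at chr15:81415581-81415780 for Ep300 (plus strand), chr2:71226815-71227014 for Hat1 (plus), chr10:62801799-62801998 for Sirt1 (minus) and chr8:90886094-90886293 for Brd7 (minus). The window ends 863 bases before the RefSeq start of Ep300, 302 before that of Hat1, 15 before that of Sirt1 and 22 before that of Brd7. For Sirt1 the window lies inside the annotated gene span, 62781753 to 62844452, because GENCODE also lists a transcript that starts farther upstream. Sirt2 is left out, since exons of Nfkbib on the opposite strand cover its start. Capitals mark 3 motifs, each sought on both strands. A GC box reads GGGCGG on one strand and was also sought as its reverse complement. A second motif, bound by the factor NF-Y, reads CCAAT and was likewise sought in both directions. The E-box reads CACGTG, which is the same on both strands.
Ep300: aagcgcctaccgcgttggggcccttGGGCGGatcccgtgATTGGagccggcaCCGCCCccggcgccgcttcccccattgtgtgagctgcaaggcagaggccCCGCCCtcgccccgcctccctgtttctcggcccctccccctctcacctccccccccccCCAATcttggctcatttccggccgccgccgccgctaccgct
Hat1: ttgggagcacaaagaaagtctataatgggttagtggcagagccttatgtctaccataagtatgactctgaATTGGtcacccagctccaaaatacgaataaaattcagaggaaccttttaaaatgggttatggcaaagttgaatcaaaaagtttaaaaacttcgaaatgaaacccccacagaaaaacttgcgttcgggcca
Sirt1: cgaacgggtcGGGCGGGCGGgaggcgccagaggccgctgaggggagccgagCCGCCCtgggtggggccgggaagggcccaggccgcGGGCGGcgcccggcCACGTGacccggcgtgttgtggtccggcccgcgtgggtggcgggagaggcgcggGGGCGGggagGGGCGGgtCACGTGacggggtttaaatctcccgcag
Brd7: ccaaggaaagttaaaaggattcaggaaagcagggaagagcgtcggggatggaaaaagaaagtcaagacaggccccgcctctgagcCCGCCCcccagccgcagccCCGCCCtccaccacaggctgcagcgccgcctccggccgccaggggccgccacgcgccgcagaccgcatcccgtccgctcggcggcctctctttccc

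The Sirt1 window held 6 GC boxes, of which the first 2 overlap, and 2 E-boxes. The Ep300 window held 3 GC boxes and 2 CCAAT boxes, Brd7 held 2 GC boxes, and Hat1 held 1 CCAAT box and no GC box. CpG dinucleotides numbered 29 in Sirt1, 20 in Ep300, 19 in Brd7 and 4 in Hat1. Over 31877 exon-free windows of 200 bases before annotated transcript starts of protein-coding genes, 28.1% held a GC box, 28.0% a CCAAT box and 4.75% an E-box on either strand, with a median of 4 CpG. Over 94 such windows of 43 members the shares were 34.0%, 26.6% and 3.19%, with a median of 5 CpG. Over 20041 windows of 11163 tested genes they were 33.5%, 28.1% and 5.51%, also with a median of 5 CpG. The GC box share and CpG median of the members were thus close to those of tested genes. The windows behind these shares lie directly before each start, whereas the 4 shown were shifted upstream past exons. Bases between a shown window and its RefSeq start were not searched. A match describes the letters only.

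Among the 10 writers, 3 fell and none rose, and 9 of the 10 fold changes were below 0 (median -0.47). The share called was 30.0%, beside 21.3% of all genes. Ep300 encodes p300, an acetyltransferase that modifies histone H3 at enhancers and promoters. Its level was 111, 106 and 108 CPM in Lsd1 KO replicates 1 to 3 and 241, 337 and 307 CPM in Control. The Lsd1 KO libraries lay close together and far below every Control library. The log2 fold change was -1.44 ± 0.18 (edgeR adjusted p = 2.89e-04), a level 2.72-fold lower. In mm9 the gene lies on chromosome 15 from 81415781 to 81482507.

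Crebbp, the paralog of Ep300, was at 443, 388 and 366 CPM in Lsd1 KO against 457, 662 and 650 in Control. The groups did not overlap, but Lsd1 KO replicate 1 and Control replicate 1 lay side by side, and the difference missed the threshold (log2 -0.56 ± 0.19, edgeR adjusted p = 0.0530). It passed with the DESeq2 Wald test, with no filter on low counts, after correction for length and GC content and without Control replicate 1. Within a library, the ratio of Ep300 to Crebbp counts was 0.251, 0.274 and 0.295 in Lsd1 KO against 0.529, 0.509 and 0.473 in Control. This log2 ratio differed by -0.88 between genotypes (exact permutation test, two-sided p = 0.10, the smallest that 3 against 3 samples allow, and 0.15 adjusted over 3 ratios chosen after values were seen).

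Hat1, the type B enzyme that acetylates newly made histone H4 before it is deposited in chromatin, was at 73.4, 93.8 and 80.2 CPM in Lsd1 KO. The Control libraries were at 218, 173 and 147 CPM, all above the Lsd1 KO libraries. The fall was log2 -1.12 ± 0.19 (edgeR adjusted p = 0.00218), or 2.18-fold, on mm9 chromosome 2 from 71227015 to 71279679. Kat2a, known as GCN5 and the catalytic subunit of the SAGA and ATAC complexes, was at 38.5, 57.4 and 44.3 CPM in Lsd1 KO against 69.5, 68.4 and 84.1 in Control. Kat2a fell by 0.66 ± 0.20 on the log2 scale (edgeR adjusted p = 0.0322), with Lsd1 KO replicate 2 nearest to the Control libraries. It lost the call when any library but Lsd1 KO replicate 2 was left out (adjusted p up to 0.168).

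None of the MYST enzymes was called. Kat5 (TIP60), at 15.9 ± 1.41 CPM in Lsd1 KO against 16.9 ± 2.30 in Control, was the scarcest of them. Myst1 (KAT8 or MOF, the enzyme for lysine 16 of histone H4) was at 134 ± 7.26 CPM in Lsd1 KO against 160 ± 15.6 in Control (log2 -0.25 ± 0.16, edgeR adjusted p = 0.303). Myst3 (KAT6A or MOZ) was at 103 ± 14.1 and 143 ± 20.7 CPM, and its groups overlapped slightly at Lsd1 KO replicate 1 and Control replicate 1 (log2 -0.46 ± 0.18, edgeR adjusted p = 0.0896). Myst2 (KAT7 or HBO1), Myst4 (KAT6B) and Kat5 had log2 values of -0.28, -0.47 and -0.09. Kat2b, the paralog of Kat2a known as PCAF, was scarce, at 4.97, 1.62 and 3.68 CPM in Lsd1 KO against 1.29, 1.66 and 1.81 in Control. Its estimate was the only one above 0 among writers and carried a wide error (log2 1.11 ± 0.53, edgeR adjusted p = 0.161).

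**Figure D2:**
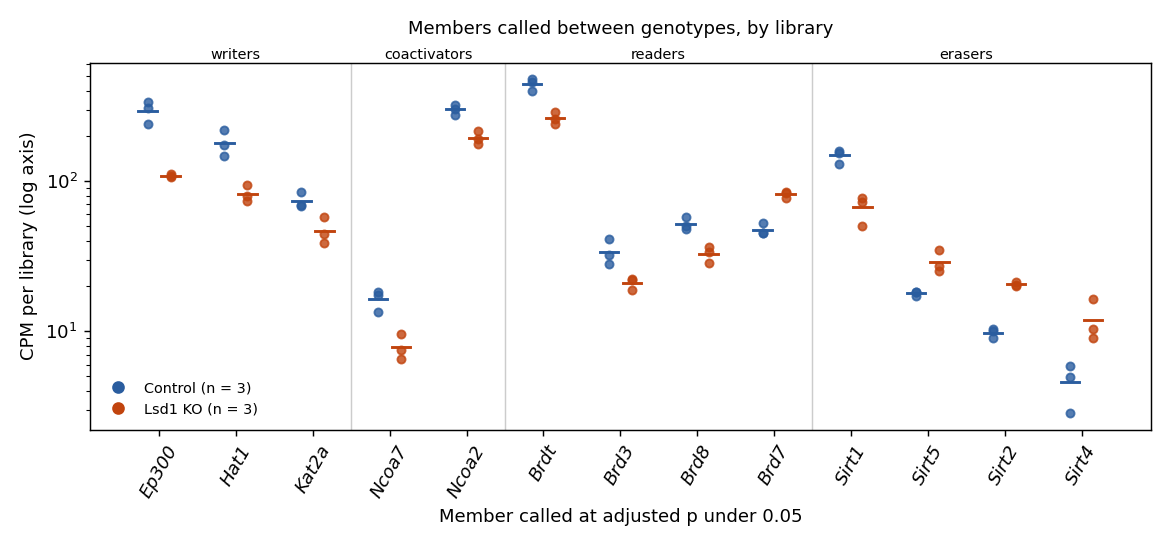
CPM in each library (log axis) for the 13 called members, grouped by role; points are the 3 libraries of a genotype and bars their mean. Each gene's Lsd1 KO points lie wholly above or wholly below its Control points, as for Ep300 at 106 to 111 against 241 to 337 CPM.

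The 7 Ncoa genes encode coactivators that nuclear receptors recruit. Ncoa1, Ncoa2 and Ncoa3 form the p160 family, which brings p300 and CBP to the receptor, whereas the others are of different structure. Of the 7, 2 fell and none rose, a share called of 28.6%, which lay near the 21.3% over all genes. Ncoa2 was at 192, 216 and 178 CPM in Lsd1 KO against 277, 322 and 303 in Control, with no overlap (log2 -0.62 ± 0.17, edgeR adjusted p = 0.0200). Ncoa7 was scarcer, at 9.62, 6.49 and 7.54 CPM against 17.4, 18.4 and 13.4 CPM, and its level was 2.08-fold lower (log2 -1.05 ± 0.28, edgeR adjusted p = 0.0192). Both rested on few libraries: Ncoa2 lost the call when replicate 1 or 3 of Lsd1 KO or replicate 2 of Control was left out (adjusted p up to 0.102). Ncoa7 lost it when replicate 2 or 3 of Lsd1 KO or replicate 1 or 2 of Control was left out (up to 0.0759).

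Ncoa1 lay the other way. Its libraries were at 75.7, 81.4 and 58.0 CPM in Lsd1 KO against 45.6, 54.6 and 50.9 in Control, without overlap. The difference was not called (log2 0.51 ± 0.19, edgeR adjusted p = 0.0751), but it was with upper-quartile scaling and with a filter of 10 CPM in 3 libraries. Ncoa3 was even, at 200 ± 36.9 and 201 ± 42.1 CPM. Ncoa4, which also carries ferritin to the autophagosome, was the most abundant coactivator at 498 ± 39.4 and 588 ± 56.3 CPM (log2 -0.24 ± 0.17, edgeR adjusted p = 0.332). Ncoa6 was at 249 ± 16.2 and 269 ± 33.4 CPM, and Ncoa5 at 22.4 ± 2.92 and 16.5 ± 1.88 CPM, neither called.

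Of the 10 readers, 3 fell and 1 rose, which is 40.0% beside 21.3% of all genes. Brdt, the BET protein best known for chromatin compaction in male germ cells, was at 241, 291 and 258 CPM in Lsd1 KO against 477, 396 and 461 in Control, so that no Lsd1 KO library reached the lowest Control library. Brdt fell by 0.76 ± 0.17 on the log2 scale (edgeR adjusted p = 0.00857) and lost the call without Lsd1 KO replicate 1 (adjusted p = 0.0636). The gene spans 107760178 to 107816077 of chromosome 5 (mm9).

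Brd3, also a BET protein, was at 22.4, 18.8 and 22 CPM in Lsd1 KO against 27.9, 32.1 and 41.0 in Control (log2 -0.68 ± 0.21, edgeR adjusted p = 0.0390). Its groups did not overlap, but it kept the call only without Control replicate 1 among the 6 fits with a library left out (adjusted p up to 0.0996). It was also lost with upper-quartile scaling and with a replicate block. Brd8, a subunit of the TIP60 acetyltransferase complex, was at 28.4, 34.0 and 36.2 CPM against 50.1, 47.8 and 58.1 CPM (log2 -0.66 ± 0.19, edgeR adjusted p = 0.0253). It lost the call when replicate 1 or 3 of Lsd1 KO or replicate 2 or 3 of Control was left out (adjusted p up to 0.135).

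Brd7, a subunit of the PBAF chromatin remodelling complex, was the reader that rose. Its libraries were at 84.7, 83.9 and 76.8 CPM in Lsd1 KO against 52.4, 45.0 and 45.5 in Control. The groups were tight and well apart (log2 0.78 ± 0.17, edgeR adjusted p = 0.00773, 1.72-fold). The gene spans 90854938 to 90886093 of chromosome 8 (mm9). Brd9, the bromodomain protein of a different BAF complex, was at 30.8 ± 2.14 and 29.5 ± 2.72 CPM (log2 0.06 ± 0.19, edgeR adjusted p = 0.845).

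Brd1, the scaffold of acetyltransferase complexes with HBO1, was at 158, 158 and 123 CPM in Lsd1 KO against 169, 171 and 258 in Control. The groups did not overlap, and Control replicate 3 was the high library (log2 -0.45 ± 0.21, edgeR adjusted p = 0.141). Brd2 was at 69.5 ± 7.20 and 88.6 ± 16.8 CPM. Brpf1 and Brpf3, scaffolds of the MOZ and HBO1 complexes, were at 10.4 ± 1.70 and 48.7 ± 15.3 CPM in Lsd1 KO against 9.50 ± 0.475 and 54.5 ± 2.75 in Control, neither called.

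The zinc-dependent erasers gave no call. Of 11 Hdac genes 8 were tested and 0 passed with edgeR, 0 with DESeq2, 0 with limma-voom and 0 at an unadjusted p under 0.05, where 35.1% of all genes reached that last level. Hdac2, a class I enzyme and the most abundant member of its family here, was at 137, 134 and 128 CPM in Lsd1 KO against 119, 121 and 109 in Control. The groups did not overlap, and the difference was small (log2 0.19 ± 0.16, edgeR adjusted p = 0.416). Hdac1 was at 16.2, 14.3 and 15.4 CPM against 10.9, 8.89 and 12 CPM, also without overlap (log2 0.53 ± 0.26, edgeR adjusted p = 0.159). The ratio of Hdac1 to Hdac2 counts was 0.118, 0.107 and 0.120 in Lsd1 KO against 0.0918, 0.0735 and 0.110 in Control (exact permutation test, two-sided p = 0.200). Both enzymes are partners of LSD1 in the CoREST complex.

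The other Hdac genes were, like Hdac1, far below Hdac2. Hdac9 (18 ± 2.48 and 21.4 ± 2.98 CPM), Hdac6, a cytoplasmic tubulin deacetylase (12.5 ± 1.11 and 13.3 ± 3.41 CPM), and Hdac3, the enzyme of the NCoR complex (11.9 ± 4.25 and 12.7 ± 2.20 CPM), overlapped between genotypes. Hdac4, Hdac8 and Hdac11 had means of 5.82 to 8.41 CPM and log2 values of -0.33, 0.03 and 0.06, with errors up to 0.51. Hdac5, Hdac7 and Hdac10 did not pass the filter on low counts. Hdac10 had 5, 2 and 9 counts in Lsd1 KO against 7, 14 and 11 in Control, Hdac5 had 2, 2 and 5 against 0, 1 and 7, and Hdac7 had 20, 0 and 5 against 2, 3 and 1. For Hdac5, Hdac7 and Hdac10 a difference was therefore not tested.

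The sirtuins moved in both directions: of 7 tested, 3 rose and 1 fell (57.1%). Over all genes, 21.3% were called, 11.0% higher and 10.3% lower. Of the 15 tested erasers, HDACs and sirtuins together, 4 were called (26.7%, median log2 0.03), near the 21.3% over all genes. Sirt1, the nuclear enzyme that deacetylates histones and transcription factors, was at 50.2, 77.8 and 72.9 CPM in Lsd1 KO against 131, 155 and 160 in Control. Every Lsd1 KO library was below every Control library, and the level was 2.22-fold lower (log2 -1.15 ± 0.20, edgeR adjusted p = 0.00222). Sirt2, a mainly cytoplasmic deacetylase of tubulin and of lysine 16 of histone H4, was at 20.4, 21.2 and 20.1 CPM against 10.3, 8.96 and 10.1 CPM. Its libraries were tight in both genotypes and its level was 2.10-fold higher (log2 1.07 ± 0.24, edgeR adjusted p = 0.00776). In Control, Sirt2 had 0.0783, 0.0578 and 0.0632 counts per Sirt1 count, and in Lsd1 KO 0.406, 0.272 and 0.276. This ratio restates the rise and the fall just given. Sirt1 and Sirt2 kept their calls with each library left out (adjusted p up to 0.0149 and 0.0295).

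Sirt3, Sirt4 and Sirt5 are the mitochondrial sirtuins. Sirt4, whose product removes lipoyl and related groups from mitochondrial enzymes, was at 16.4, 10.4 and 8.98 CPM in Lsd1 KO against 4.99, 2.86 and 5.87 in Control (log2 1.38 ± 0.37, edgeR adjusted p = 0.0193). The groups did not overlap, but the Lsd1 KO libraries were spread, and the call was lost when replicate 1 of Lsd1 KO or replicate 1 or 2 of Control was left out (adjusted p up to 0.0979). Sirt5, a desuccinylase, was at 25.3, 34.7 and 27.1 CPM against 18.3, 17.1 and 18.3 CPM (log2 0.70 ± 0.21, edgeR adjusted p = 0.0355). It lost the call in all 6 fits with a library left out (adjusted p 0.0525 to 0.143), with a replicate block and after length and GC correction (0.0864). Sirt3 was scarce, at 2.16 ± 0.265 and 2.68 ± 1.83 CPM (log2 -0.31 ± 0.62, edgeR adjusted p = 0.756).

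Sirt6 and Sirt7 are nuclear and nucleolar. Sirt6 was at 28.7, 24.4 and 30.9 CPM in Lsd1 KO against 20.6, 16 and 32.0 in Control, so that Control replicate 3 lay above all Lsd1 KO libraries (log2 0.29 ± 0.26, edgeR adjusted p = 0.452). Sirt7 was at 24.6, 26.1 and 27.3 CPM against 36.3, 31.9 and 39.7 CPM, with no overlap but no call (log2 -0.47 ± 0.19, edgeR adjusted p = 0.0964). Mafg, which overlaps Sirt7 on the same strand, had 9.51 CPM in Control and fell to 4.00 CPM (log2 -1.25 with an edgeR adjusted p = 0.0197). On the strand opposite to Sirt2, Nfkbib overlaps its start; Nfkbib had 37.7 CPM in Lsd1 KO against 41.5 in Control (log2 -0.14). How reads in the overlap of Sirt7 and Mafg were assigned is not stated in the labels. For Sirt2 and Nfkbib the labels also do not state whether counting used strand, so reads from their overlap cannot be told apart.

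Divided by exonic length, the order of the members differed from that in CPM. The highest length-scaled levels in Control were those of Ncoa4 (132 ± 12.7 CPM per kb), Myst1 (102 ± 9.94), Brdt (87.0 ± 8.33), Crebbp (78.5 ± 15.4) and Hat1 (62.2 ± 12.4). The range of mean ± SD of Crebbp overlapped those of both Brdt and Hat1. Sirt1, Ncoa6, Ep300, Hdac2, Myst2, Ncoa3 and Brd1 were at 24.5 to 27.9 CPM per kb, with SDs of 1.40 to 6.27, so that the order of these 7 was not resolved. In Lsd1 KO, Ep300 was at 9.66 ± 0.215 CPM per kb against 26.3 ± 4.35 in Control and moved from rank 9 to rank 23 of 44. Sirt1 moved from rank 7 to 17, Brd7 from 20 to 12 and Sirt2 from 33 to 26. Hdac2 led the erasers in Lsd1 KO at 29.7 ± 0.988 CPM per kb, with Hdac1 at 4.45 ± 0.271, whereas in Control Sirt1 (27.9 ± 2.90) and Hdac2 (26.0 ± 1.40) lay within their spread.

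**Figure D3:**
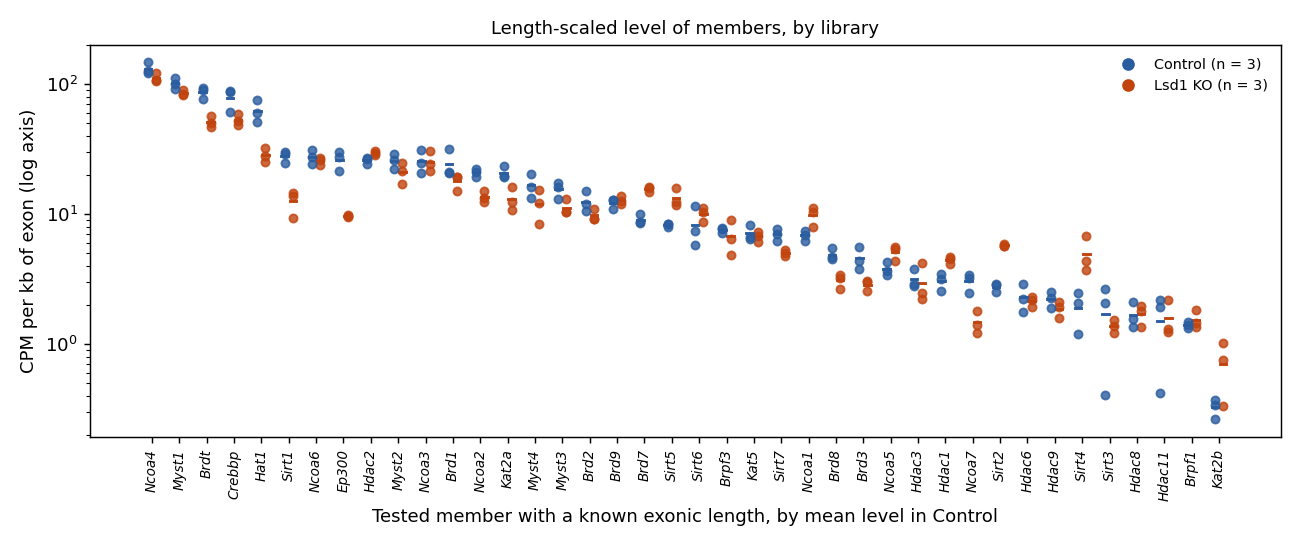
Length-scaled level (CPM per kb of exon, log axis) in each library for the reported tested members with a known exonic length, sorted by the Control mean; points are libraries and short bars means. Ep300 stands out among its neighbours, near 26.3 in Control and 9.66 in Lsd1 KO.

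Among called genes, exonic length differed with the direction of change. The 9 members that fell had a median exonic length of 5360 bases and the 4 that rose one of 2983 bases. Over the 41 tested members with a known length it was 5244 bases, close to that of the members that fell. Over all genes the medians were 4441 bases for those called lower and 3196 for those called higher, beside 3683 for all tested. Per doubling of length, log2 levels deviated from the gene means by -0.027, -0.007 and -0.095 in Lsd1 KO replicates 1 to 3 and by -0.059, 0.095 and 0.094 in Control replicates 1 to 3. After a correction for length and GC content in each library, Ep300 was at log2 -1.40, Sirt1 at -1.12, Hat1 at -1.10, Brd7 at 0.76 and Sirt2 at 0.98. All 13 called members but Sirt5 kept the call there.

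**Figure D4:**
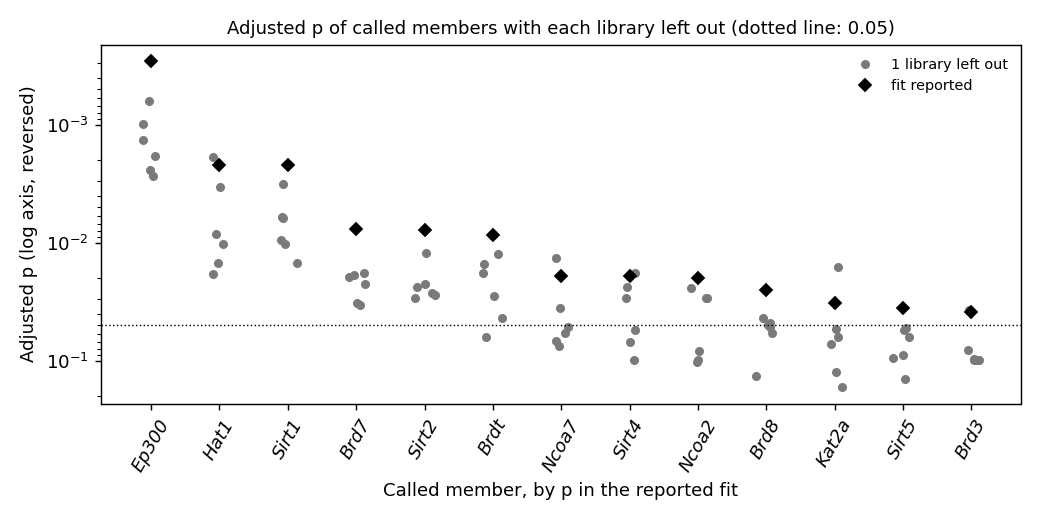
Adjusted p (log axis, reversed so that smaller values are higher) of the 13 called members in the reported fit (black diamonds) and with each of the 6 libraries left out (grey points). Ep300, Hat1, Sirt1, Brd7 and Sirt2 stay on the called side of the dotted line at 0.05; all 6 grey points of Sirt5 lie on the other side.

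The partners of these proteins were read from lists written with earlier results of these data known. Of 132 tested partners, 6 rose and 18 fell, together 18.2% beside 21.3% of all genes. Among 38 partners in HDAC complexes 2 rose and 2 fell (10.5%, median log2 0.03). Mier3, a subunit of an HDAC1 and HDAC2 complex, went from 73.9 ± 12.4 CPM in Control to 28.3 ± 4.99 CPM (log2 -1.39 ± 0.21, edgeR adjusted p = 9.31e-04). Phf12 of the SIN3 complex fell (-0.63), and Chd4 (0.75) and Mta1 (0.61) of the NuRD complex rose. Phf12, Chd4 and Mta1 kept the call in 2, 1 and 1 of the 6 fits with a library left out (adjusted p up to 0.132, 0.107 and 0.180). Mta1 lay at the threshold (edgeR adjusted p = 0.0496). It also lost the call with DESeq2 size factors, limma-voom, a replicate block, and length and GC correction. Phf12 was also lost with a replicate block.

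Of 47 tested partners of the acetyltransferases, 10 fell and 2 rose (median log2 -0.29, where the median of all genes was -0.01). The 25.5% called lay near the 21.3% over all genes, of which 10.3% were lower and 11.0% higher. Cited2, which binds p300 and CBP and competes there with other factors, was at 58.2, 65.3 and 58.8 CPM in Lsd1 KO against 272, 251 and 279 in Control. Its groups lay far apart (log2 -2.14 ± 0.17, edgeR adjusted p = 1.30e-05). Epc2, a scaffold of the TIP60 complex, fell from 269 ± 41.5 to 123 ± 7.63 CPM (log2 -1.12 ± 0.18). Taf5l, a SAGA subunit and so a partner of Kat2a, fell from 64.7 ± 4.41 to 30.5 ± 3.28 CPM (log2 -1.08 ± 0.18). The gene listed as 1700081L11Rik, which is Kansl1, the scaffold of a Myst1 complex, fell from 122 ± 10.6 to 62.9 ± 9.84 CPM (log2 -0.96 ± 0.18). Cited2, Epc2, Taf5l and 1700081L11Rik kept the call with each library left out. Named after their values were seen, the rises were Elp3 (0.94) and the histone chaperone Asf1b (0.73).

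Other genes with a bromodomain or a related reader domain gave 6 falls and 2 rises among 30 tested (median log2 -0.30). The 26.7% called lay near the 21.3% over all genes, of which 10.3% were lower and 11.0% higher. Ash1l, a histone methyltransferase with a bromodomain, fell from 120 ± 18.3 to 54.9 ± 3.56 CPM (log2 -1.13 ± 0.18). Trim33 fell from 216 ± 51.1 to 105 ± 12.6 CPM (log2 -1.04 ± 0.20) and Brwd3 from 203 ± 32.0 to 112 ± 7.12 CPM (log2 -0.86 ± 0.18). Dpf3, a BAF complex subunit that binds acetylated histone H3, rose from 19.0 ± 2.96 to 37.8 ± 4.15 CPM (log2 0.99 ± 0.21). Ash1l, Trim33, Brwd3 and Dpf3 kept the call with each library left out.

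Genes of acetyl-CoA and NAD metabolism, among them the NAD users Parp1, Parp2 and Cd38, showed no call. Of 17 tested, 0 passed with edgeR, where 21.3% of all genes did, 0 with limma-voom and 1 with DESeq2. Where 35.1% of all genes had an unadjusted p under 0.05 with edgeR, 2 of the 17 did. These were Pdhb, a pyruvate dehydrogenase subunit (51.0 against 76.9 CPM, log2 -0.59 ± 0.20, edgeR adjusted p = 0.0503), and Slc33a1, an acetyl-CoA transporter (6.73 against 11.4 CPM, log2 -0.77 ± 0.29, edgeR adjusted p = 0.0758), both named after their values were seen. Acly, which makes acetyl-CoA from citrate, was at 34.2 and 27.1 CPM, and Nampt, the rate-limiting enzyme of NAD salvage, at 23.3 and 19.3 CPM.

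**Figure D5:**
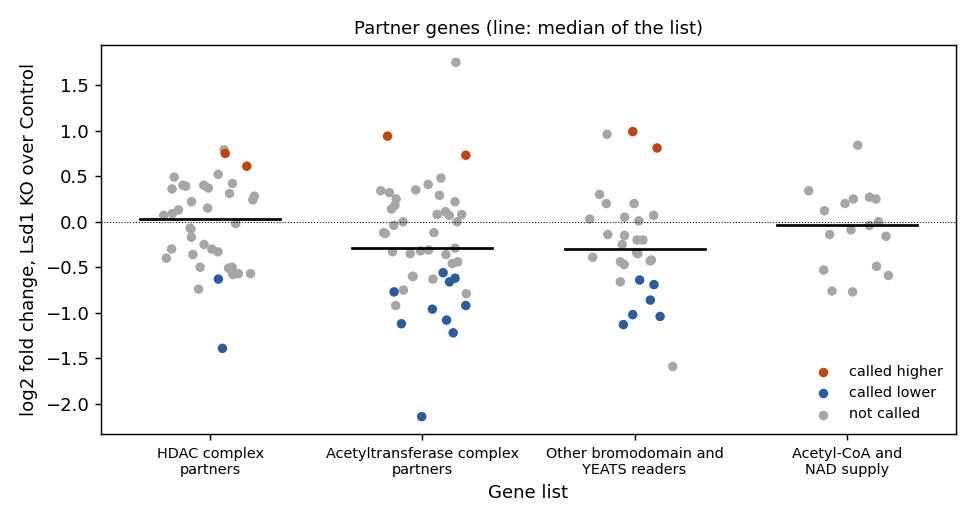
Log2 fold change (y axis, Lsd1 KO over Control) of the 132 tested partner genes, one point per gene in 4 lists; sideways scatter has no meaning, and black lines are list medians of 0.03, -0.29, -0.30 and -0.04. The lowest called point is Cited2 at -2.14.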

How the data were processed

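The authors deposited raw read counts per gene symbol, 1 file per sample, and all values were whole numbers. Per the submitters' processing notes, the mm9 build was used with HTSeq 0.5.3p9, TopHat2 2.0.7 and CASAVA 1.8.2. Options, annotation and strand setting: not given in the sources used here. Per the labels' protocols, oocytes were lysed directly and cDNA was amplified before library preparation. The label for genotype set each sample's group. Genes were kept by filterByExpr (minimum count 10), which left 12935 of 23284, and tested with edgeR 4.0.16 (R 4.3.3, TMM, quasi-likelihood F test, two-sided). Standard errors came from the fold change and the F statistic. Positions and exonic lengths are from GENCODE M1 on NCBIM37, the assembly of mm9; RefSeq starts (GRCm38.p6) were placed there by exact sequence match. The common biological coefficient of variation was 27.2%.

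Members and lists were chosen with earlier results of these data known. All called members were named, with those of adjusted p between 0.05 and 0.15, the 2 most abundant uncalled members of each class and up to 4 called partners per list with the smallest adjusted p; other genes are named by count or range, or as named after their values were seen. Of 146 list entries, 129 matched a symbol directly, 10 a synonym, 5 repeated a gene, and 2 did not match. Tested on 20 simulated draws with 200 of 12935 genes changed, edgeR recovered 39% to 64% of changes of log2 1 and 88% to 97% of log2 2, with 4 to 16 false calls. The changed genes were drawn from those with a mean above 5 CPM. In the data 21.3% of genes were called, so these rates need not hold there or for scarcer genes. One reader enters the counts and medians but is not reported here. Alternatives used DESeq2 1.42.0 and limma 3.58.1 among 17 settings.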

Additional observations from a re-analysis of the deposited data

How the results depend on the processing

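Over all genes, 676 were higher and 497 lower at an adjusted p under 0.01, and 945 and 625 where called genes also had to change by log2 1 or more in either direction. At the same thresholds 2 and 2 members were higher and 4 and 4 lower, 2 and 0 partners higher and 9 and 8 lower, 1 reader lower and then 0, 1 eraser higher at 0.01, and no reader higher at a log2 change of 1. Coactivators lower numbered 0 at 0.01 and 1 at log2 1, and 1 coactivator was higher with upper-quartile scaling and with 10 CPM in 3 libraries. With each library left out in turn, genes higher ranged from 932 to 1466 and lower from 638 to 1346, members higher from 2 to 3 and lower from 4 to 8, coactivators lower from 0 to 2, readers lower from 0 to 3, erasers higher from 1 to 2, and partners higher from 3 to 10 and lower from 8 to 21. No named gene reversed a called direction in any fit. Other scalings moved the median log2 fold change of all genes by at most 0.043.

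No label states that same-numbered samples were paired, and the reported fit did not pair them. Their deviations correlated at -0.029, 0.111 and -0.021, and those of differently numbered samples at -0.098 to 0.131. Such values do not show whether samples were paired. With a replicate block, 1270 genes were higher and 1098 lower, and 3 members were higher and 8 lower; Sirt5 (adjusted p = 0.0691) and Brd3 (0.0646) lost the call. Low counts left Hdac5, Hdac7 and Hdac10 untested and went with wide errors for Sirt3 (SE 0.62) and Kat2b (SE 0.53).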
